A study of Mus musculus with 2 samples.

Results

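The genes described here encode the proteins of the mitochondrial ribosome that carry an Mrpl or Mrps symbol, where Mrpl stands for the large and Mrps for the small subunit. All nuclear protein-coding genes of GENCODE release M21 (mouse genome build mm10) whose symbol is Mrpl or Mrps followed by digits were taken, which gave 78 of 21938 coding genes, 49 for the large and 29 for the small subunit. They lie on 17 chromosomes. The data are lists of genomic intervals (peaks) at which SRCAP was detected by CUT&Tag, an assay in which an antibody directs a transposase to a chromatin protein and the tagged DNA is sequenced. A gene was called bound in a sample when at least 1 base of a peak fell between 1000 bp upstream and 500 bp downstream of any of its annotated transcription start sites (TSSs).

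There were 2 samples, replicates 1 and 2 of a single group. The cells were SYAT mouse embryonic stem cells, a line engineered from CGR8 cells in which YPet, a yellow fluorescent protein, was fused with a degron that responds to auxin and inserted at the 3′ end of both Srcap alleles, and which also carries the plant receptor OsTir1. Both samples were the control condition, in which cells grown in serum and LIF received auxinole, an inhibitor of OsTir1, so SRCAP was tagged but not deliberately degraded. SRCAP was recovered through its YPet tag with an anti-GFP antibody, from 200000 cells per sample. No auxin-treated, untagged or antibody-control library was analysed here, so no list of background peaks could be set beside these values, and the findings concern 1 engineered line. The lists measure no transcripts, so the labelled cell type could not be checked against marker expression. The study describes its replicates as coming from independent cultures.

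SRCAP is the ATPase of the chromatin remodeling complex that places the histone variant H2A.Z into nucleosomes, mainly around TSSs and at enhancers. The mitochondrial ribosome sits inside the organelle and makes the few respiratory chain subunits that mitochondrial DNA still encodes. Its RNAs are mitochondrial transcripts, but all of its proteins are products of nuclear genes, so their promoters are ordinary nuclear chromatin. The small subunit reads the messenger RNA, and the large subunit joins the amino acids.

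Replicate 1 had 6158 peaks in its list, against 12958 for replicate 2. Each peak had a score from the peak caller, 13 at the lowest in both lists and up to 4910 and 6452. The score is compared only within a list here. The read depth is unknown, and a gene without a peak is one at which none was detectable in that library. The lists' unequal length, and any depth behind it, cannot be told apart from other differences between the libraries.

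Among the 78 genes, SRCAP peaks were called at 18 promoters in replicate 1, 23.1% (Wilson 95% interval 15.1 to 33.6), where 15.7% of all coding genes had one. In replicate 2 they were called at 39 promoters, 50% (39.2 to 60.8), beside 30.4% of coding genes. The mean over the replicates was 36.5% ± 19 (SD, n = 2). In both lists the same 14 genes had a promoter peak, 17.9% (11 to 27.9), beside 12% of coding genes. The share was above that of all coding genes in each list, but in replicate 1 and for genes bound in both lists the interval holds the value of all coding genes. With a score of at least 50 required, the share was below that of coding genes in replicate 1 (1.28%, beside 4.21%) and in both lists (1.28%, beside 2.99%). A set of 4 genes had a peak in replicate 1 only (5.13%, beside 3.66% of coding genes) and 25 in replicate 2 only (32.1%, beside 18.3%). The other 35 had one in neither list (44.9%, beside 66%). Of the genes bound in replicate 1, 77.8% were also bound in replicate 2 (76.7% for all coding genes), and in the other direction the share was 35.9% (39.7%). The intervals cover counting error only, and neighbouring genes can share a peak. With 1 group of samples there was no contrast to test, and no p-value is given.

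**Figure D1:**
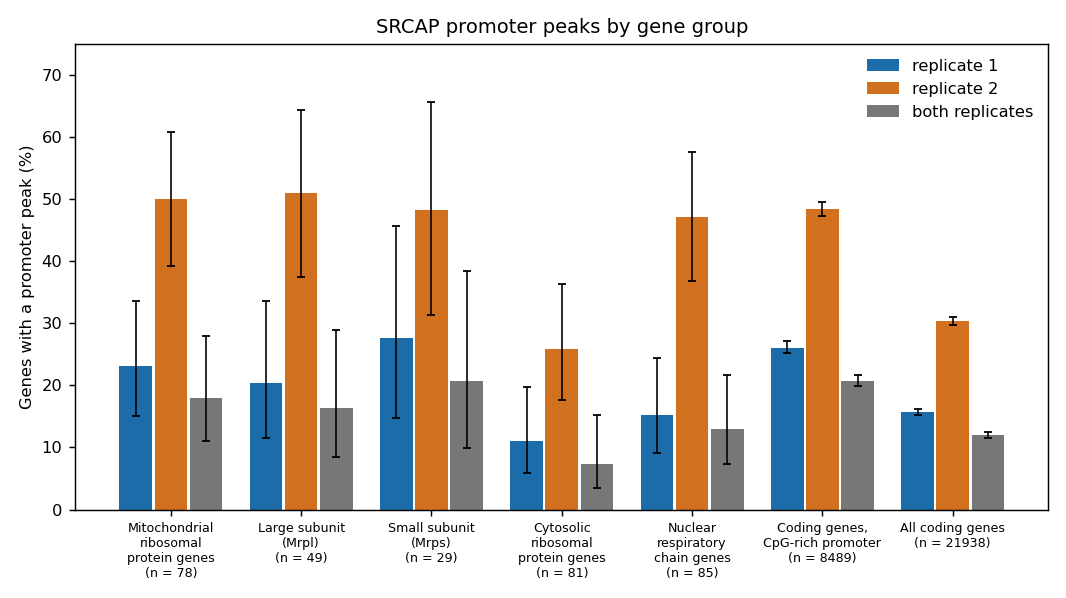
Share of genes (vertical axis, percent) with a SRCAP promoter peak in each replicate and in both, for 7 gene groups with the number of genes under each name. Bars are shares and error bars Wilson 95% intervals. The mitochondrial ribosomal protein genes stand at 23.1%, 50% and 17.9%, above all coding genes (15.7%, 30.4% and 12%) and near coding genes with a CpG-rich promoter (26.1%, 48.4% and 20.7%).

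The subunits had similar shares. Of the 49 large subunit genes, 10 were bound in replicate 1 (20.4%, 11.5 to 33.6), 25 in replicate 2 (51%, 37.5 to 64.4) and 8 in both (16.3%, 8.51 to 29). Of the 29 small subunit genes the counts were 8 (27.6%, 14.7 to 45.7), 14 (48.3%, 31.4 to 65.6) and 6 (20.7%, 9.85 to 38.4). The small subunit share was higher in replicate 1 and the large subunit share in replicate 2, and the intervals overlapped throughout. Symbols follow the subunit first assigned to a protein. In mammalian ribosome structures the products of Mrps18a and Mrps30 sit in the large subunit, and that of Mrps36 belongs to the 2-oxoglutarate dehydrogenase complex. Counted that way, which was decided after the values were seen, 8 of 51 large subunit genes (15.7%) and 5 of 26 small subunit genes (19.2%) had a peak in both lists.

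Among small subunit genes, Mrps28 had the strongest pair of peaks. It had a score of 68 in replicate 1 (chr3:8923526-8923965) and of 142 in replicate 2 (chr3:8923462-8923965), above 87.7% and 97.1% of the promoter-bound coding genes of each list. Both peaks began at the same base upstream of its single TSS and ran into the gene, with their midpoints 172.5 and 204.5 bp downstream, in one of its coding exons. The Mrps36 scores were 40 (chr13:100744033-100744647) and 124 (chr13:100744212-100744666). For Mrps16, a core protein kept from bacteria, they were 47 (chr14:20393537-20393927) and 50 (chr14:20393256-20393813). These peaks at Mrps36 and Mrps16 overlapped between lists over 436 and 277 bp. Mrps9, another conserved protein, had scores of 22 (chr1:42851165-42851480) and 57 (chr1:42850871-42851497). Mrps26, a protein particular to mitochondrial ribosomes, had 21 (chr2:130563389-130563967) and 40 (chr2:130563401-130563714). The sixth gene, Mrps12, which encodes the decoding-center protein homologous to bacterial S12, had the lowest replicate 1 score of all, 13, and 37 in replicate 2. Among these 6 genes Mrps28 was the highest in each list.

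Of the 8 large subunit genes bound in both lists, none reached the scores of Mrps28. Mrpl48 had 45 (chr7:100607376-100607879) and 42 (chr7:100607463-100607756). These peaks lay at an upstream TSS of Mrpl48, with midpoints at -24525.5 and -24507.5 bp from the TSS taken to represent the gene. Mrpl35 had 34 (chr6:71823545-71823867) and 40 (chr6:71823349-71823827), and Mrpl50 had 32 (chr4:49520877-49521252) and 77 (chr4:49520790-49521210). Mrpl57 had 32 (chr14:57826241-57826527) and 47 (chr14:57825984-57826519). In each of these genes the peaks of the replicates overlapped. Mrpl15 had 24 and 41, and its interval, chr1:4785471-4786028, was the same 558 bp in both lists. Mrpl40 had 37 (chr16:18876552-18876919) and 26 (chr16:18876309-18876949), with a further replicate 2 peak of score 26 centered at -961 bp from the TSS, in an intron of Hira. Mrpl9 had the second lowest replicate 1 score, 14, and 35 in replicate 2. Within these 8 genes Mrpl48 was the highest in replicate 1 and Mrpl50 in replicate 2.

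Mrpl1, whose product forms the stalk that handles the leaving transfer RNA, was called bound in both lists through different peaks. The replicate 1 peak (score 29, chr5:96209565-96209937) and the replicate 2 peak (score 72, chr5:96210051-96210451) did not touch, with 113 bp between them and midpoints 500 bp apart. Each lay near a different annotated start of the gene. The other 13 genes had overlapping peaks, as did 2498 of the 2643 coding genes bound in both lists (94.5%). The midpoints of the 14 genes' peaks moved by a median of 102.75 bp between lists.

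**Figure D2:**
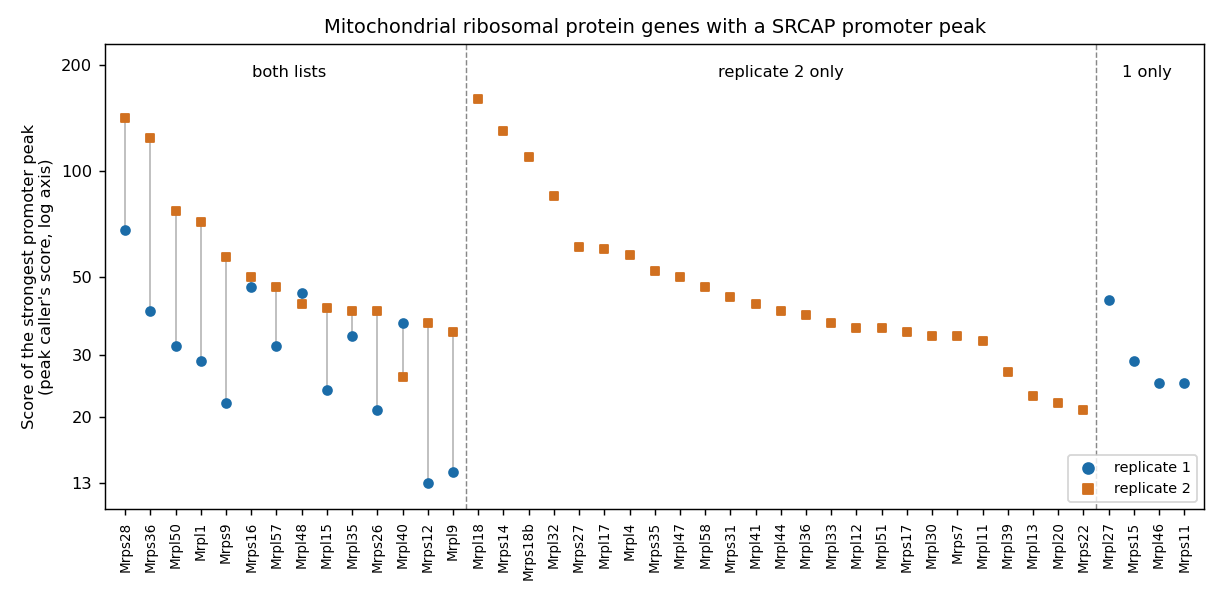
Score of the strongest promoter peak (vertical log axis, the peak caller's score) for the 43 genes with a peak in either list. Circles are replicate 1, squares replicate 2, gray lines join the values of a gene, and dashed lines part genes bound in both lists, in replicate 2 only and in replicate 1 only. Mrpl18 (160), Mrps28 (142) and Mrps14 (130) lead replicate 2, and Mrps28 (68) leads replicate 1.

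The upstream sequences of a few genes are given to show the DNA before their starts, which the peaks cover in part or in whole. They are read 5′ to 3′ on the strand of the gene from the mm10 reference. Each ends at the base before the representative TSS and is cut short where an annotated exon begins. Capitals mark GGGCGG (the GC box of SP and KLF factors), CCAAT (NF-Y) or TCTCGCGA (ZBTB33, also named Kaiso), on either strand. Mrps28 (chr3:8923919-8924038, minus strand) is shown as the gene with the highest paired scores, and none of the searched motifs was found there. Of its 120 bases, the 47 next to the TSS lay in the peak of each list. Mrpl15 (chr1:4785740-4785859, minus strand) lay wholly inside the peak of both lists.
Mrps28: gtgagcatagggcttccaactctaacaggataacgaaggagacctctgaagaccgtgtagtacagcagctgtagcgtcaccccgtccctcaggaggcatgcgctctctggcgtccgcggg
Mrpl15: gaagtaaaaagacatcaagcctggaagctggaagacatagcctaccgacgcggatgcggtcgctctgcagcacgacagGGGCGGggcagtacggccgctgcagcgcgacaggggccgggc

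Mrpl40 (chr16:18876863-18876982, minus strand) and Mrpl57 (chr14:57826186-57826233, plus strand) are shown because they were the 2 genes of the 78 with TCTCGCGA in the searched window, and both were bound in both lists. Of the 307 coding genes with these letters, 86 were bound in both lists. Among cytosolic ribosomal protein genes 14.8% had the letters, and 7.41% were bound in both lists. The Mrpl40 stretch shared 57 bases with the replicate 1 peak and 87 with that of replicate 2. Its TCTCGCGA match, which starts at -85 bp, lay outside the replicate 1 peak and inside that of replicate 2. The Mrpl57 stretch lay entirely in the replicate 2 peak and outside that of replicate 1, and it holds 2 overlapping matches, 1 on each strand.
Mrpl40: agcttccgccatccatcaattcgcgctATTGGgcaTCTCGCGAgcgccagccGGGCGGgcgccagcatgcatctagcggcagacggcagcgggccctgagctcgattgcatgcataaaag
Mrpl57: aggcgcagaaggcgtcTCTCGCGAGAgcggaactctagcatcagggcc

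A peak in replicate 1 only was found at Mrpl27 (43), Mrps15 (29), Mrpl46 (25) and Mrps11 (25). The last 2 genes start back to back, 30 bp apart, and were called through a single shared peak, chr7:78783068-78783331, so the 18 bound genes of replicate 1 rest on 17 different peaks. The bases between their starts (chr7:78783090-78783118), all within that peak, are given on the strand of Mrps11 to show how little DNA separates them, with none of the searched motifs.
Mrps11: ccatgaggcaacgcgggccggcgaggggc

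Among the 25 genes with a peak in replicate 2 only, 4 scored in that list above every gene bound in both lists other than Mrps28 and Mrps36. Mrpl18 reached 160, the highest score of any of the 78 genes, above 98.4% of the promoter-bound coding genes of that list. Mrps14 reached 130 (95.8%), Mrps18b 110 (93.4%) and Mrpl32 85. Replicate 1 had no peak in these promoters, and the nearest to Mrpl18 lay 5122 bp outside its window. The Mrps14 upstream stretch (chr1:160195095-160195214, plus strand), all of it in the replicate 2 peak, is shown as that of the strongest gene in this class without a divergent coding neighbor, with a GC box in capitals.
Mrps14: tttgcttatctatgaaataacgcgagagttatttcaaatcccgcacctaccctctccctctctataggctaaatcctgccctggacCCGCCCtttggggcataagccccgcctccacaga

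The other large subunit genes of this class were Mrpl17 (60), Mrpl4 (58), Mrpl47 (50), Mrpl58 (47), Mrpl41 (42), Mrpl44 (40), Mrpl36 (39), Mrpl33 (37), Mrpl12 (36), Mrpl51 (36), Mrpl30 (34), Mrpl11 (33), Mrpl39 (27), Mrpl13 (23) and Mrpl20 (22), with the replicate 2 score in parentheses. Mrpl12 forms the stalk that recruits translation factors, and Mrpl58 is a peptidyl-tRNA hydrolase that also frees stalled ribosomes. The small subunit genes were Mrps27 (61), Mrps35 (52), Mrps31 (44), Mrps17 (35), Mrps7 (34) and Mrps22 (21). The Mrpl20 peak was the only 1 of the 41 replicate 2 peaks at these promoters in which at least 50% of bases were annotated repeats (62.5%).

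No promoter peak was called in either list at 22 large subunit genes, Mrpl2, Mrpl3, Mrpl10, Mrpl14, Mrpl16, Mrpl19, Mrpl21, Mrpl22, Mrpl23, Mrpl24, Mrpl28, Mrpl34, Mrpl37, Mrpl38, Mrpl42, Mrpl43, Mrpl45, Mrpl49, Mrpl52, Mrpl53, Mrpl54 and Mrpl55. The same held for 13 small subunit genes, Mrps2, Mrps5, Mrps6, Mrps10, Mrps18a, Mrps18c, Mrps21, Mrps23, Mrps24, Mrps25, Mrps30, Mrps33 and Mrps34. Mrpl3 builds part of the peptidyl transferase center, and Mrpl10 anchors the stalk of Mrpl12. Unbound genes were not near misses of the window. In replicate 1 none of the 60 genes without a promoter peak had one within 5000 bp beyond its window. In replicate 2 there was 1 of 39, Mrps2, with a peak of score 29 at 2658 bp. The median gap to the nearest peak was 59668.5 and 36934 bp.

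In replicate 1 the strongest peak per gene had a median score of 30.5 (13 to 68), beside 36 for all promoter-bound coding genes, and 1 of 18 (5.56%) reached 50, beside 26.8%. In replicate 2 the median was 42 (21 to 160), beside 44, and 15 of 39 (38.5%) reached 50, beside 43%. For genes bound in both lists the medians were 32 and 44.5, beside 39 and 59 for coding genes. For the 25 genes bound in replicate 2 only the median was 40, beside 37, and 36% reached 50, beside 30.2%. For the 4 genes bound in replicate 1 only it was 27, beside 29. The median was thus below that of coding genes bound by the same rule in each class other than replicate 2 only, and no difference was tested. The median peak widths, 370.5 and 448 bp, were close to those of all promoter-bound coding genes, 356 and 421 bp.

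The peaks sat close to the starts. The midpoint lay within 200 bp of a TSS at 15 of 18 genes in replicate 1 (83.3%) and 31 of 39 in replicate 2 (79.5%), beside 64.6% and 65.1% of bound coding genes. The peak held a TSS at 16 (88.9%) and 32 (82.1%) genes, beside 61.6% and 66.8%. Midpoints fell downstream of the nearest TSS at 9 of 18 and 17 of 39 genes (50% and 43.6%), beside 47.2% and 47.6%, so neither side of the start was favored. A window from 500 bp upstream to 250 bp downstream and one from 2000 to 1000 bp gave the same counts of bound genes, 18, 39 and 14. By annotation at the midpoint, the largest class in replicate 2 was the 5′ UTR of the gene itself, with 11 of 41 peaks. Another 10 of those 41 midpoints fell in a feature of another gene, as the coding exon near Mrps12 and the intron near Mrpl9.

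**Figure D3:**
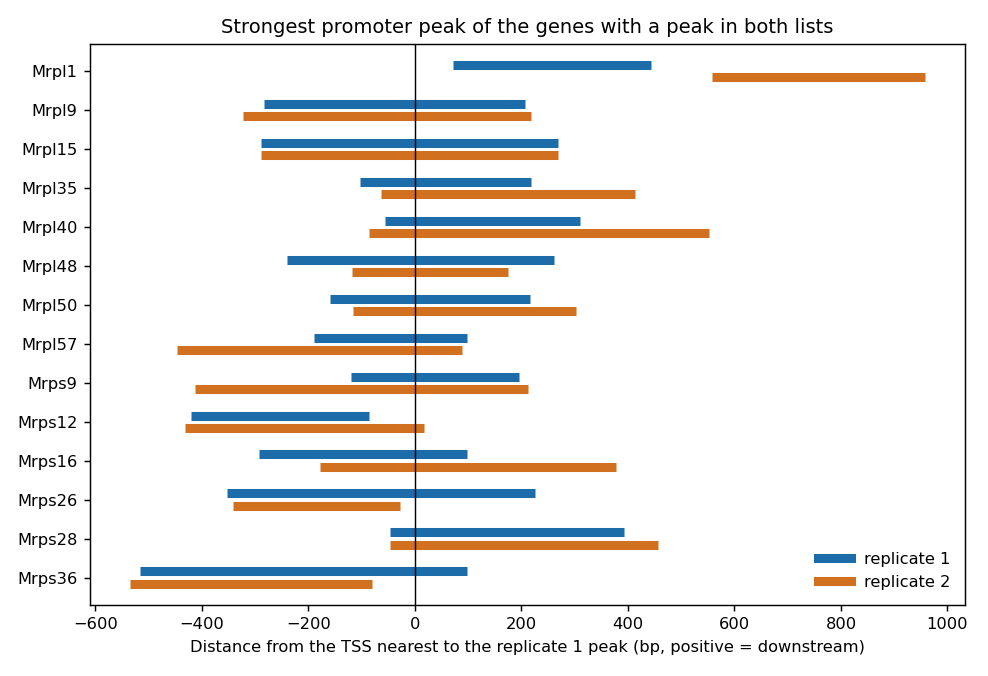
Extent of the strongest promoter peak in replicate 1 (upper bar, blue) and replicate 2 (lower bar, orange) at the 14 genes bound in both lists. The horizontal axis is the distance in bp from the TSS nearest to the replicate 1 peak, positive downstream. The bars of 13 genes overlap between replicates, those of Mrpl15 coincide, and those of Mrpl1 are 113 bp apart.

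Many of these genes share their promoter with a gene on the opposite strand. Counted as divergent when a TSS of another coding gene on the other strand lay in the promoter window, 33 of the 78 genes had such a neighbor (42.3%, beside 11.9% of coding genes). The share was 37.6% for nuclear respiratory chain genes and 19.8% for cytosolic ribosomal protein genes. The distance between the starts of a gene and its neighbor, counted as negative where the transcripts overlapped, had a median of 47 bp. In either direction, 24 of the 33 starts were within 100 bp, and in 8 pairs the transcripts overlapped. Of the divergent genes, 9 (27.3%) had a peak in replicate 1, 18 (54.5%) had one in replicate 2 and 6 (18.2%) had one in both. For the 45 other genes these counts were 9 (20%), 21 (46.7%) and 8 (17.8%). Among all coding genes, 29.5% of divergent genes were bound in replicate 1, 55% in replicate 2 and 25% in both, and 13.8%, 27% and 10.3% of other genes. In each list the divergent ribosomal genes were thus close to divergent coding genes. Restricted to CpG-rich promoters, 28.2% of divergent and 18.8% of other coding genes were bound in both lists. Divergent and other mitochondrial ribosomal protein genes were thus within 1 percentage point of each other for peaks in both lists, while the divergent genes had the higher share in each list. Peaks in both lists were at 5 of 24 divergent (20.8%, 9.24 to 40.5) and 3 of 25 other large subunit genes (12%, 4.17 to 30). For the small subunit they were at 1 of 9 (11.1%, 1.99 to 43.5) and 5 of 20 (25%, 11.2 to 46.9). These counts are small, the intervals all overlap and no difference was tested. With lists of equal length the shares were 12.1% for divergent and 17.8% for other genes.

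**Figure D4:**
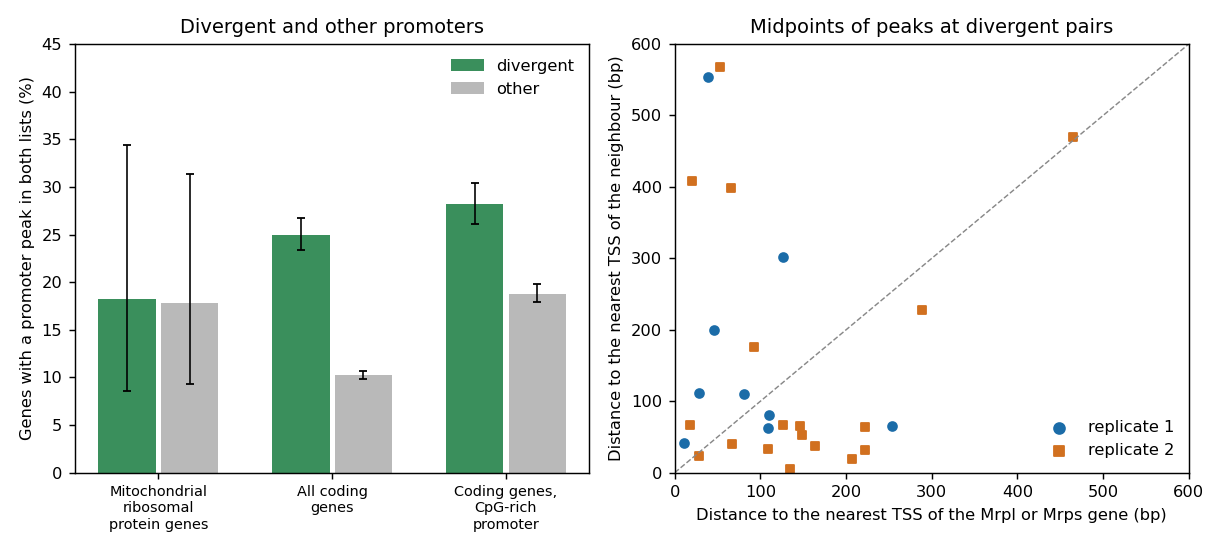
Left, share of genes (percent) with a promoter peak in both lists for divergent and other genes, with Wilson 95% intervals, which for the mitochondrial ribosomal protein genes are wide (18.2% of 33 and 17.8% of 45). Right, distance in bp from the midpoint of the strongest peak in both promoter windows to the nearest TSS of the Mrpl or Mrps gene and of its neighbor, with the dashed line at equal distance. In replicate 2, 12 of 18 peaks lie below the line, nearer to the neighbor.

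Every divergent pair with a peak had at least 1 peak that lay in both promoter windows and so cannot be assigned to 1 gene. Mrpl36 had in addition its strongest replicate 2 peak (39) outside the window of its neighbor. The 33 genes form 32 pairs, since Mrpl46 and Mrps11 are each other's neighbor, and in all 32 pairs both genes had the same state in each list. In replicate 1, 8 of 8 pairs with a peak had it at both genes, and in replicate 2, 18 of 18. Among all 1332 divergent coding pairs the shares were 88.3% and 89.1%. By the midpoint of the strongest peak that lay in both windows, the Mrpl or Mrps gene was the nearer at 6 genes and the neighbor at 3 in replicate 1. The single peak shared by Mrpl46 and Mrps11 entered these counts once on each side. In replicate 2 the counts were 6 and 12.

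The pairs bound in both lists joined genes of varied function. Mrpl40 starts 175 bp from Hira, which encodes a chaperone of histone H3.3. Mrpl48 was paired with Rab6a, a GTPase of Golgi transport, and Mrpl50 with Zfp189, a zinc finger gene. Mrpl57 was paired with Ska3, a kinetochore protein gene, and Mrpl9 with Oaz3, an antizyme gene. Mrps12 starts 172 bp from Sars2, the mitochondrial seryl-tRNA synthetase, and its peak midpoints were nearer to Sars2, at 65.5 bp from its nearest start against -253.5 bp from that of Mrps12 in replicate 1. Its upstream stretch (chr7:28741821-28741940, minus strand), 35 and 120 bases of which lay in the peaks, is shown for its 3 CCAAT matches in capitals.
Mrps12: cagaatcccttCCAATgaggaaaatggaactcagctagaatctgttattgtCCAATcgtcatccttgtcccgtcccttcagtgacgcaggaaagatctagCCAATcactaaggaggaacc

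Of the pairs bound in replicate 2 only, Mrpl36 with Ndufs6 and Mrpl47 with Ndufb5 joined a ribosomal gene to a subunit of respiratory complex I. The strong replicate 2 peaks at Mrpl18, Mrpl32 and Mrps18b were likewise at divergent promoters, with Tcp1 (cytosolic chaperonin), Psma2 (proteasome) and Ppp1r10 (a phosphatase regulator) as neighbors. The first 2 midpoints lay in the 5′ UTR of the neighbor and the third in one of its noncoding exons. Mrpl43 and Twnk, the mitochondrial DNA helicase, were without a peak in both lists.

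Promoter composition was compared in the 300 bases running from 250 upstream to 50 downstream of the representative TSS. A CpG-rich promoter, with at least 55% GC and a CpG observed over expected ratio of at least 0.6, was found at 47 of the 78 genes (60.3%), beside 38.7% of coding genes. Of these 47, 10 were bound in replicate 1 (21.3%), 22 in replicate 2 (46.8%) and 8 in both (17%). Values for CpG-rich coding genes were 26.1%, 48.4% and 20.7%, so among CpG-rich promoters the ribosomal genes were slightly below the other coding genes in each list. Of the 31 genes without a CpG-rich promoter, 6 (19.4%) were bound in both lists, beside 6.57% of such coding genes. These 31 promoters still had a median ratio of 0.704, against 0.279 for the coding genes without a CpG-rich promoter, so the class does not match the composition of the groups.

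Genes bound in both lists had a median GC content of 56.5% and a ratio of 0.71, and genes with no peak 58.8% and 0.834. The bound genes were thus not the richer in CpG. All coding genes bound in both lists had medians of 62.1% and 0.761, beside 55.5% and 0.551 for all coding genes. Genes with more annotated starts had a wider search window. With 1 to 3 TSSs, 9 of 38 ribosomal genes were bound in both lists (coding genes, 7.11%), and with 4 or more, 5 of 40 (coding genes, 17.8%). The order of these classes was opposite in the ribosomal genes and in all coding genes. The ribosomal genes had a median search window of 2109.5 bp, beside 3002 bp for coding genes.

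The same 300 bases were searched on both strands for 9 short motifs of promoter factors. The ETS motif CCGGAAG was in 29 promoters (37.2%), beside 11.2% of all coding and 19.3% of CpG-rich coding promoters. It was in 4 of the 14 genes bound in both lists (28.6%), in 16 of the 43 with a peak in either list (37.2%) and in 13 of the 35 with none (37.1%). In replicate 1, 17.2% of the genes with the motif and 26.5% of those without it were bound, and in replicate 2 51.7% and 49%. The order of genes with and without the ETS letters thus differed between lists. The YY1 motif AAGATGGCG was in 8 promoters (10.3%, beside 1.81% of all and 3.32% of CpG-rich coding promoters), which were Mrpl36, Mrpl37, Mrpl42, Mrps10, Mrps11, Mrps18a, Mrps24 and Mrps27. None of these 8 was bound in both lists, and 3 had a peak in either list. Of the genes with this motif, 12.5% were bound in replicate 1 and 25% in replicate 2, beside 24.3% and 52.9% of those without it. Among coding genes bound in both lists the share with the motif was 3.25%, above the 1.81% of all coding genes. The NRF1 motif GCGCATGCG was in 5 promoters (6.41%, beside 2.55% and 4.11%), all of large subunit genes, of which Mrpl9 was bound in both lists.

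CCAAT was in 27 promoters (34.6%, beside 38.8% and 36.2%), in 8 of the 14 genes bound in both lists (57.1%), in 17 of the 43 with a peak in either list (39.5%) and in 10 of the 35 with no peak (28.6%). For all coding genes bound in both lists the share was 45.4%. GGGCGG was in 37 (47.4%, beside 45% of all coding promoters), in 8 of the 14 genes bound in both lists (57.1%) and 14 of the 35 with no peak (40%). It was in 80.2% of CpG-rich coding promoters and in 68.9% of coding genes bound in both lists, both above the share of the ribosomal genes. The groups are small, and no difference between them was tested. The E-box CACGTG was in 4 promoters (5.13%, beside 7.78% and 11.8%), Mrpl2, Mrpl37, Mrpl54 and Mrps18c, and all 4 had no peak. Among coding genes bound in both lists the E-box share was 9.27%, above the 7.78% of all coding genes. TCTCGCGA was in 2 (2.56%, beside 1.4% of all and 2.9% of CpG-rich coding promoters) and the ZNF143 motif ACTACAATT in 0 (beside 0.538% and 0.483%). TATAAA was in 7 (8.97%, beside 12.6% and 3.97%), none of which was bound in both lists. For TCTCGCGA and TATAAA the order thus turned with the class of promoters compared. Of the 7 genes with TATAAA, 4 had a peak in either list. Among coding genes bound in both lists the TATAAA share was 5.6%. A motif match is a description of the letters in this window and says nothing of whether the factor was there. At Mrpl1, Mrpl33, Mrpl36, Mrpl48 and Mrpl58 the strongest peak did not overlap the searched window, and Mrpl1 is among the 8 genes with CCAAT bound in both lists. Likewise Mrpl48 is among the 4 genes with the ETS motif bound in both lists. Mrpl33, Mrpl48 and Mrpl58 are among the 16 with that motif and a peak in either list.

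Gene families of cytosolic protein synthesis and of respiration were set beside these genes. Of 81 cytosolic ribosomal protein genes, 9 (11.1%, 5.96 to 19.8) were bound in replicate 1, 21 (25.9%, 17.6 to 36.4) in replicate 2 and 6 (7.41%, 3.44 to 15.2) in both. These intervals hold the shares of all coding genes, and in replicate 1 and in both lists they overlap those of the mitochondrial ribosomal protein genes. Of 85 nuclear genes for respiratory chain subunits, 13 (15.3%) were bound in replicate 1, 40 (47.1%) in replicate 2 and 11 (12.9%) in both. Intervals for the respiratory chain genes, 9.16 to 24.4, 36.8 to 57.6 and 7.38 to 21.7, overlap those of the mitochondrial ribosomal protein genes throughout.

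The counts in 5 further groups of mitochondrial gene expression are read against the shares of all coding genes, 15.7%, 30.4% and 12% in replicate 1, replicate 2 and both. Of 5 mitochondrial ribosomal proteins with symbols outside the Mrpl and Mrps series, none was bound in replicate 1 and 4 were in replicate 2, Dap3 (61), Chchd1 (61), Ptcd3 (38) and Aurkaip1 (13). Gadd45gip1 had no peak. Of 26 genes for ribosome assembly and ribosomal RNA processing, 7 (26.9%) and 15 (57.7%) were bound, and 6 in both lists (23.1%). These were Tfb1m (77 and 105), the methyltransferase of the small subunit RNA, Mtg1 (51 and 52), Gtpbp10 (26 and 24), Noa1 (31 and 41), Dhx30 (19 and 71) and Malsu1 (31 and 29). Among them are the GTPases Mtg1, Gtpbp10 and Noa1, and Malsu1, which keeps the subunits apart during assembly.

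Of 17 mitochondrial aminoacyl-tRNA synthetase genes, 8 (47.1%) and 12 (70.6%) were bound, and 7 in both lists (41.2%), among them Aars2 (37 and 38), Fars2 (63 and 116), Lars2 (37 and 33), Nars2 (31 and 92), Sars2 (13 and 37) and Wars2 (73 and 88). The Sars2 peaks are those of Mrps12. Of 11 translation factors, 1 (9.09%) and 4 (36.4%) were bound, and Mtrf1l, a release factor, in both, with 254 and 243, scores above those of all 78 ribosomal genes. Of 8 genes for mitochondrial transcription, the same 3 (37.5%) were bound in each list, Tfb2m (113 and 110), Tfam (43 and 85) and Lrpprc (17 and 53).

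With a score of at least 50 required, 1 of the 78 genes remained in replicate 1 (1.28%, beside 4.21% of coding genes). In replicate 2 there were 15 (19.2%, beside 13.1%), and in both lists Mrps28 alone (1.28%, beside 2.99%). The share was thus below that of coding genes in replicate 1 and in both lists. With the stronger peaks of replicate 2 cut to the 6158 of the shorter list, its share was 34.6%, beside 19.2% of coding genes. Then 12 genes were bound in both lists (15.4%, beside 9.69%), without Mrpl9 and Mrpl40. When each gene was given its representative TSS only, 12 genes were bound in both lists (15.4%, beside 10.6% of coding genes), without Mrpl1 and Mrpl48.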

How the data were processed

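The authors mapped uniquely aligned reads to mm10 with STAR, removed duplicates with Picard, thinned libraries by their Drosophila spike-in and called peaks with MACS2. The deposited score of a peak is a whole number of at least 13. It was taken to be 10 times −log10 of the q-value with decimals dropped, as MACS2 writes it, which puts the lowest score at a q-value of 0.05. This reading, and which steps apply to these lists, was inferred. Reads, controls and depth were not analysed here. Peaks were joined to GENCODE M21 TSSs (minimum overlap 1 bp) with Python 3.11.15, and bases were read with pysam 0.24.0. The 13 coding genes of the mitochondrial genome were left out. Divergent neighbors and CpG-rich promoters were defined as stated with the results. Shares have Wilson 95% intervals (scipy 1.17.1). The joining step, tested on simulated data, found 200 of 200 planted peaks. The 12 genes with the best worse rank over both lists were given with coordinates, and all 78 were named. The genes and lists were chosen with earlier results of these data known. The alternatives were other windows, starts, transcripts, scores, list lengths and peak filters, and each replicate alone. The values of 1 synthetase gene are not reported here.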

Additional observations from a re-analysis of the deposited data

How the results depend on the processing

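Of the counts of bound genes under each alternative, most stayed within 1.5 times the reported value, the number of genes bound in both lists being 14 with a narrower or wider window and 12 with lists of equal length or with 1 start per gene. A minimum score of 50 moved every count, to 1 gene in replicate 1, 15 in replicate 2 and 1 in both, with 0 large subunit, 1 small subunit, 0 divergent and 1 other gene in both, and to 655 coding genes in both. Requiring a start inside the peak left 11 of the 14 genes and 1530 of the 2643 coding genes. With 1 replicate left out, bound genes ranged from 18 to 39, large subunit genes from 10 to 25, small subunit genes from 8 to 14, divergent genes from 9 to 18, other genes from 9 to 21 and coding genes from 3445 to 6660, the higher values all without replicate 1. Counting subunits by ribosome structure, an alternative chosen after seeing the data, gave 8 and 5 genes. No paired analysis was possible because both samples belong to a single group. Depth limits the lists to an unknown extent, and genes bound in 1 list may differ only in detection.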
